A study of Arabidopsis thaliana with 18 samples.

Results

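A set of 273 probe sets, 1.20% of the 22746 measured in the roots and leaves of Arabidopsis thaliana, was lower in roots after an osmotic stress and was still lower a day later. A probe set is the group of short array probes that reads 1 transcript or a few closely related ones. Members were chosen by their own root values: the mean of the stressed roots and the mean of the roots labelled day 11 each lay at least 0.7 below the mean of the mock roots on the log2 scale. All root differences of members given here therefore describe that choice, carry no test, and support nothing beyond it. The leaf arrays took no part in the choice, and for the members only leaf comparisons were tested. Of the 273 probe sets, 147 were paired with 1 gene (146 distinct genes, since AT1G51270 had 2 probe sets), 2 with several genes and 124 with none.

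All plants were wild type Columbia-0 grown in a hydroponic basal medium, and 18 Affymetrix ATH1 arrays were made from total RNA, which gave 6 groups with 3 biological replicates in each. Osmotic plants, labelled day 10, received 0.3 M mannitol in the medium for 3 h in the light at an age of 30 days. Day 11 plants were taken as those that the protocol describes as moved back to the medium without mannitol for 1 day after the same stress. Mock plants, labelled day 10, had no mannitol. Each treatment was sampled as roots and as leaves. No mock plants carried the day 11 label, so recovery, 1 more day of age and the transfer cannot be told apart, and both root differences share the same 3 mock arrays.

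Mannitol outside the root lowers the water potential of the medium, draws water from the cells and takes away the turgor that drives their expansion. Roots then slow or stop growing, adjust their solutes and change the proteins of the cell wall, through which growth is controlled. Pectin-modifying enzymes, expansins and extensins loosen or stiffen that wall, and receptor kinases at the cell surface report on it.

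Every value is the log2 expression that the authors deposited, and a difference of 1 is a 2-fold change. Array medians lay between 6.55 and 6.69, and arrays of 1 group correlated at 0.987 to 0.995 across probe sets, which are not independent replicates. The lower quartile of an array lay between 4.27 and 4.50. Background itself was not measured here, and values under the quartile were taken as not separable from it. Differences reaching into that range were therefore treated as lower bounds at best. This held for the osmotic or day 11 roots of 43 members. In whole organs, fewer cells of a type and less RNA per cell cannot be told apart. An exact permutation test of 3 arrays against 3 cannot give a two-sided p below 0.1, so single genes were tested only within the fit over all probe sets.

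The root falls were unequal in size and in how far they had returned. At the osmotic time the members had a median difference from mock of -1.26 (quartiles -1.75 and -0.95), and at day 11 one of -0.93 (quartiles -1.13 and -0.80), against -0.01 for all probe sets at both times. Array by array, the median member lay at -1.26, -1.33 and -1.27 relative to the mock mean in osmotic roots and at -0.95, -1.04 and -0.87 in day 11 roots, while the mock arrays themselves lay at -0.04, -0.02 and 0.02. The differences reached -1 or lower for 193 members under stress, for 99 at day 11 and for 80 at both times. A difference of -2 or lower was seen for 50 members under stress, for 8 at day 11 and for 5 at both. The median member kept 79% of its osmotic fall at day 11 on the log2 scale (quartiles 57.2% and 96.0%). The rule puts a floor under this share, since every member had to pass the threshold at day 11 as well. It left out 1167 probe sets that passed only under stress, with a median day 11 difference from mock of -0.24. The share therefore describes the choice and does not measure how far root falls in general persisted.

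**Figure D1:**
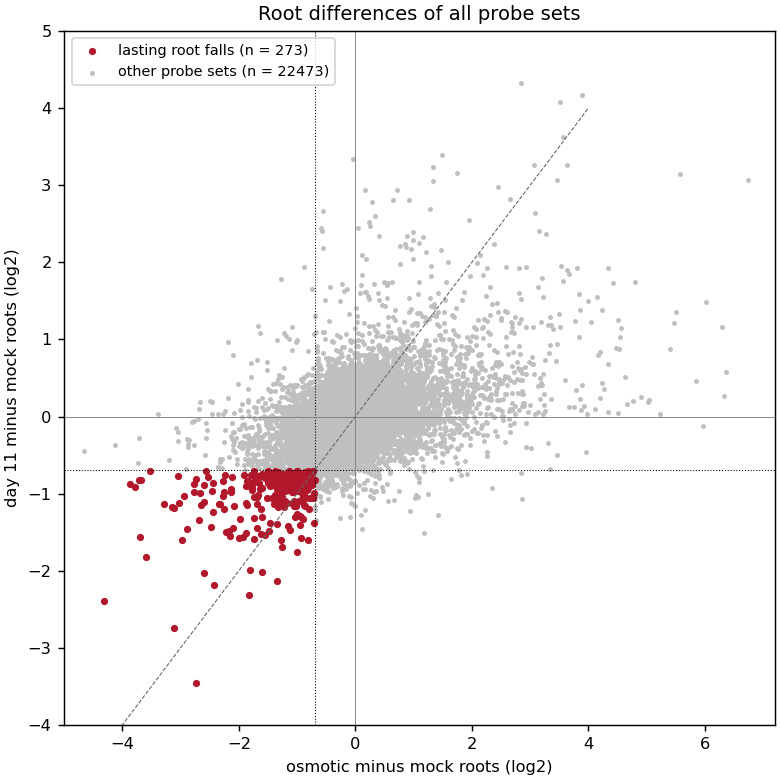
Difference of osmotic roots from mock roots (x axis, log2) against that of day 11 roots from mock roots (y axis, log2), 1 point per probe set, with the thresholds of -0.7 dotted and equal differences on the dashed line. The 273 members (red) fill the lower left corner by construction, most of them above the dashed line, that is, closer to mock at day 11 than under stress.

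By the rule, 6.33% of all probe sets were low enough under stress (1440) and 1.97% at day 11 (447). The members made up 19.0% of the osmotic falls and 61.1% of the day 11 falls, and both comparisons use the same mock arrays. Just inside the threshold lay AT3G13840, with a lesser fall of -0.707, and AT2G45920 and AT2G41705, each at -0.703. The mock root mean of AT3G13840 was 4.16, under the lower quartile of the arrays. AT3G13840 left the set without osmotic root replicate 3 or mock root replicate 2 or 3, AT2G45920 without day 11 replicate 2 or mock replicate 3, and AT2G41705 without day 11 replicate 2 or mock replicate 1. Just outside lay AT5G26200 at -0.6996, AT3G44510 at -0.699 and AT1G29600 at -0.6985. All 3 osmotic arrays lay below all 3 mock arrays for 269 members, with 23.4% of all probe sets doing so. The same held at day 11 for 259 members (17% of all probe sets) and at both times for 256 (9.43%), and since these contrasts chose the members nothing is read from the counts. Whichever of the 9 root arrays was left out, 156 of the 273 remained members.

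Enzymes and inhibitors of the pectin network held the largest day 11 fall. AT5G14650, a polygalacturonase-like protein of the family that cleaves pectin, measured 6.11, 6.89 and 5.23 in osmotic roots and 5.39, 5.20 and 5.47 in day 11 roots, against 8.97, 8.72 and 8.73 in mock roots. No osmotic or day 11 array came near the mock arrays, and the day 11 values lay at the low end of the osmotic ones. The differences were -2.73 and -3.46 ± 0.27 (SE from the fit, n = 3 in each group). AT5G62360, an invertase or pectin methylesterase inhibitor, measured 6.54, 6.64 and 6.10 in osmotic roots and 7.57, 8.02 and 7.99 in day 11 roots, against 9.32, 9.79 and 8.86 in mock roots. Its day 11 arrays lay between both other groups without touching either, at differences of -2.89 under stress and -1.47 ± 0.34 at day 11. AT2G43890, another polygalacturonase-like protein, had smaller differences of -1.11 and -0.79 ± 0.23, and left the set without day 11 root replicate 3 or mock root replicate 1.

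EXPB2 (AT1G65680) encodes a beta-expansin, a protein that loosens walls without cutting their polymers. It measured 6.37, 7.10 and 5.37 in osmotic roots and 5.61, 5.79 and 6.22 in day 11 roots, against 8.17, 7.54 and 7.94 in mock roots. All 6 arrays after stress lay below the mock arrays, while osmotic and day 11 arrays overlapped, and the differences were -1.60 and -2.01 ± 0.32. Among structural wall proteins, the extensin-like AT4G08380 measured 6.71, 7.65 and 6.97 in osmotic roots and 8.78, 8.44 and 9.48 in day 11 roots, against 9.18, 10.06 and 10.41 in mock roots. Its highest day 11 array lay above the lowest mock array, and the differences were -2.77 and -0.98 ± 0.29. The extensin-like AT3G54580 had differences of -1.13 and -0.96 ± 0.26, and the arabinogalactan protein AT4G16980 of -1.78 and -0.93 ± 0.17. AT4G16980 left the set when mock root replicate 2 was left out. AT2G41810, of a family of secreted wall proteins, had differences of -2.09 and -1.16 ± 0.26.

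Protein families were assembled after the values had been seen, from what is known of the 146 named genes, and their counts describe the set without testing it. They hold 70 of those genes in 13 families.

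**Figure D2:**
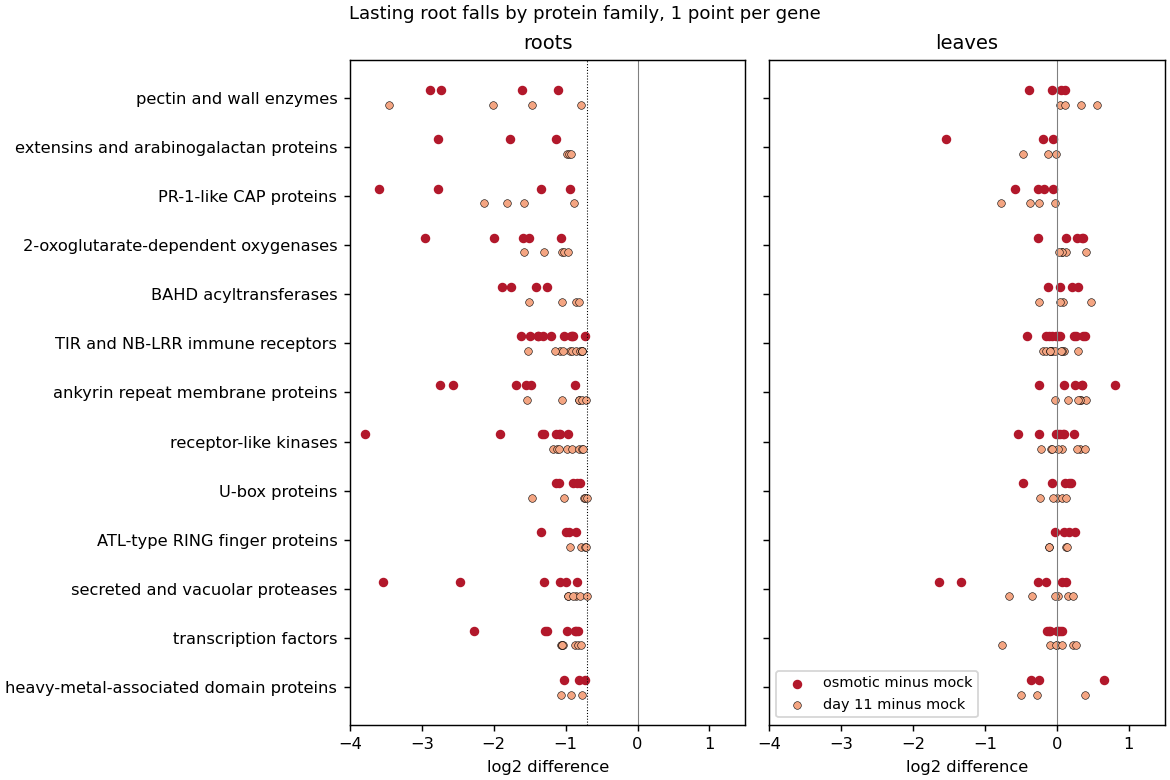
Log2 differences of the members in 13 protein families, 1 point per gene, osmotic minus mock (dark red) and day 11 minus mock (orange), in roots (left) and leaves (right), with the root threshold of -0.7 dotted. All root points lie at or below the threshold because the rule placed them there, whereas leaf points lie on both sides of 0, with the lowest at -1.64 among the proteases and -1.54 among the extensins and arabinogalactan proteins.

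Secreted proteins of the CAP family, to which the pathogenesis-related protein PR-1 belongs, had 4 members that differed in their course. PR-1-LIKE (AT2G19990) measured 4.34, 4.03 and 3.95 in osmotic roots and 6.53, 5.16 and 5.97 in day 11 roots, against 7.87, 7.73 and 7.51 in mock roots. The 3 groups were separate, the osmotic values lay under the lower quartile of the arrays, and the differences were -3.60 and -1.82 ± 0.24. AT2G19970, 2 steps away in the order of measured genes, had differences of -2.78 and -0.88 ± 0.30 and left the set without day 11 root replicate 2.

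A further neighbouring pair of the CAP family had lower means at day 11 than under stress, with overlapping arrays. AT4G33720 was among the most abundant members and measured 10.44, 10.71 and 9.81 in osmotic roots and 9.98, 9.27 and 9.81 in day 11 roots, against 11.31, 11.15 and 11.31 in mock roots. Both groups lay below the mock arrays and overlapped each other, at differences of -0.94 and -1.57 ± 0.24. AT4G33710 measured 3.74, 7.07 and 4.41 in osmotic roots and 3.94, 3.93 and 4.96 in day 11 roots, against 5.61, 5.73 and 7.90 in mock roots. Osmotic replicate 2 and mock replicate 3 stood far above the other arrays of their groups, and the difference under stress was -1.34 ± 0.63. The step of AT4G33710 from osmotic to day 11 roots was -0.80, and it turned to 0.20 without osmotic root replicate 2. Without mock root replicate 3 or without osmotic root replicate 1 the gene left the set, and AT4G33720 left it without osmotic root replicate 3.

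Enzymes of small-molecule metabolism included 5 of the 2-oxoglutarate-dependent oxygenases, which hydroxylate or desaturate hormones and specialised metabolites. AT1G52800 measured 5.12, 5.14 and 5.25 in osmotic roots and 5.32, 5.59 and 5.88 in day 11 roots, against 6.83, 6.95 and 7.74 in mock roots. The osmotic arrays lay close together, all 6 values after stress lay below mock, and the differences were -2.00 and -1.57 ± 0.22. Close by in the genome, AT1G52790 and AT1G52820 had differences of -1.51 and -1.05 ± 0.32 and of -2.95 and -1.03 ± 0.31, and both left the set without mock root replicate 3, the highest mock array for each. AT1G80320 differed by -1.60 and -1.30 ± 0.26, and AT1G04350 by -1.06 and -0.97 ± 0.19.

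Transferases formed another group. UGT76D1 (AT2G26480), a glucosyltransferase that attaches sugar to small molecules, measured 5.90, 6.31 and 6.41 in osmotic roots and 6.72, 6.86 and 7.07 in day 11 roots, against 7.91, 8.51 and 8.69 in mock roots. The 3 groups did not overlap, and the differences were -2.16 and -1.49 ± 0.22. The glutathione transferase GSTU21 (AT1G78360) measured 4.55, 4.72 and 4.33 in osmotic roots and 4.73, 4.33 and 4.54 in day 11 roots, against 5.92, 5.75 and 6.39 in mock roots. Osmotic and day 11 arrays were intermixed at a difference of -1.49 from mock at both times (± 0.17). BAT1 (AT4G31910), a BAHD-type acyltransferase that acts on brassinosteroid hormones, measured 8.97, 8.08 and 8.34 in osmotic roots and 9.28, 9.39 and 9.43 in day 11 roots, against 10.47, 10.09 and 10.12 in mock roots. No arrays of different groups overlapped, and the differences were -1.77 and -0.86 ± 0.18. The 3 other BAHD members, AT1G78990, AT5G07080 and AT1G24420, had day 11 differences between -1.51 and -0.81, and AT1G24420 left the set without mock root replicate 3.

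Other enzymes stood alone in their families. AT2G01900, an inositol polyphosphate 5-phosphatase, measured 3.76, 3.60 and 3.18 in osmotic roots and 5.81, 4.76 and 5.72 in day 11 roots, against 6.41, 6.86 and 6.59 in mock roots. The osmotic values lay under the lower quartile of the arrays and the day 11 values between osmotic and mock. The differences were -3.11 and -1.19 ± 0.21. AT3G05950, a germin-like wall protein and one of the most abundant members, measured 9.90, 9.43 and 9.31 in osmotic roots and 10.18, 10.18 and 10.56 in day 11 roots, against 11.09, 11.68 and 11.50 in mock roots. Its groups were separate, at differences of -1.88 and -1.12 ± 0.20. AAH (AT4G20070), which acts in the breakdown of ureides from purines, had differences of -1.66 and -0.78 ± 0.17, the phosphatase SAL2 (AT5G64000) of -1.87 and -0.90 ± 0.31, and the glutaredoxin ROXY2 (AT5G14070) of -1.76 and -0.86 ± 0.24. AAH left the set without day 11 root replicate 2 or mock root replicate 2.

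**Figure D3:**
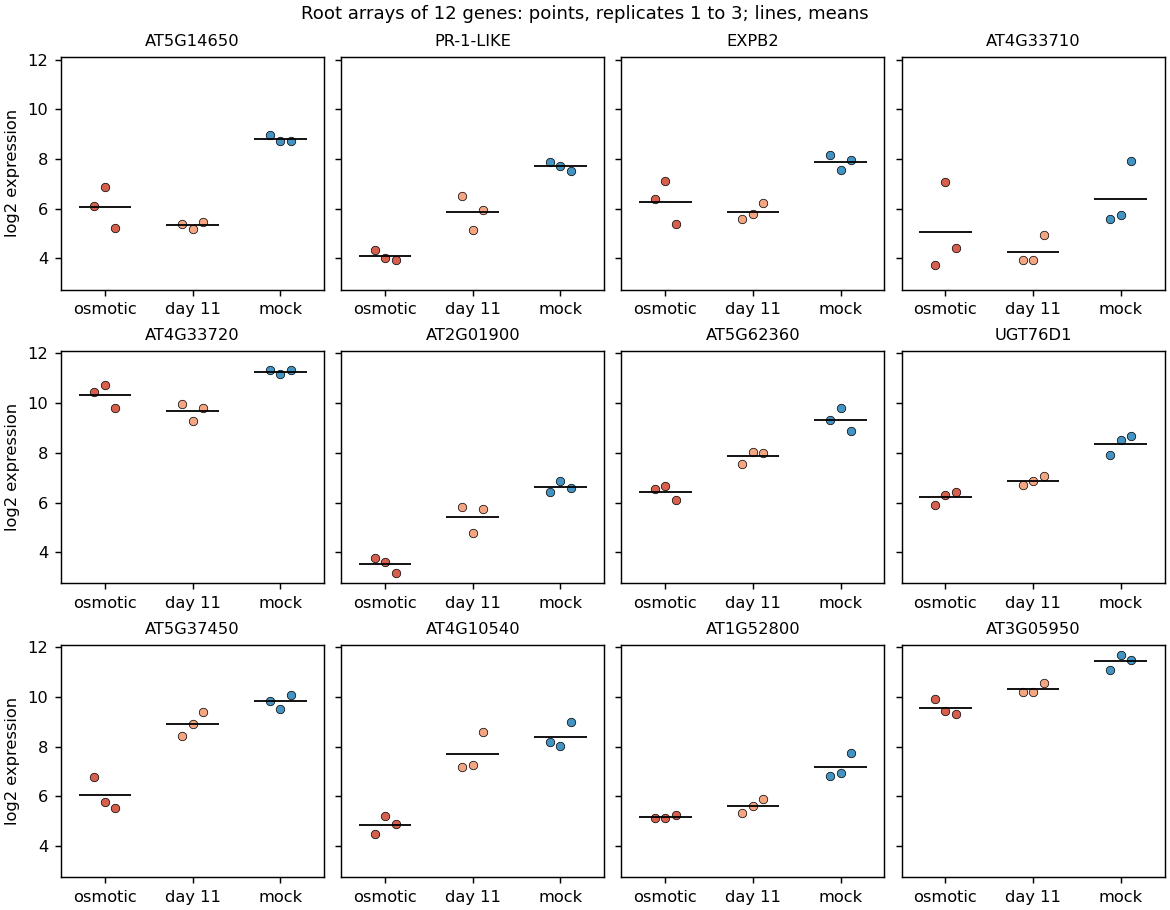
Log2 expression (y axis, 1 scale for all panels) of 12 members in osmotic, day 11 and mock roots, with 1 point per array and a line at the mean of 3. In 10 panels all osmotic and day 11 points lie below the mock points, whereas AT4G33710 has an osmotic array above 2 mock arrays and AT4G10540 has a day 11 array above 2 mock arrays.

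Surface receptors and intracellular immune receptors were both represented. Among 8 receptor-like kinases the largest osmotic difference was that of AT5G37450, a leucine-rich repeat kinase. It measured 6.79, 5.78 and 5.53 in osmotic roots and 8.43, 8.89 and 9.37 in day 11 roots, against 9.84, 9.53 and 10.08 in mock roots. The groups did not overlap, the differences were -3.78 and -0.92 ± 0.29, and the gene left the set without day 11 root replicate 1. The S-locus lectin kinases AT1G61480 and AT1G61500 had differences of -1.07 and -0.98 ± 0.24 and of -1.09 and -1.12 ± 0.24, and AT1G61480 left the set without mock root replicate 3. The wall-associated kinase-like AT1G19390 differed by -1.33 and -1.17 ± 0.16.

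Genes with the TIR domain or the nucleotide-binding and leucine-rich repeat structure of immune receptors numbered 11, and their falls were moderate. Osmotic differences ran from -1.62 to -0.74 (median -1.20), and day 11 differences ran from -1.52 to -0.77 (median -0.92). Most were of low abundance, with mock root means from 4.79 to 7.27. AT4G11340, which had the largest fall at both times, measured 3.59, 4.98 and 4.31 in osmotic roots and 3.87, 4.03 and 5.26 in day 11 roots, against 5.44, 5.39 and 6.91 in mock roots. Its values after stress all lay below mock and reached into the background range. The neighbours AT2G17050 and AT2G17060 had differences of -1.49 and -0.78 ± 0.19 and of -1.32 and -0.95 ± 0.11. AT2G17050 left the set without day 11 root replicate 2 or mock root replicate 3.

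Ankyrin repeat proteins with predicted membrane spans had 6 members, 4 of which had moved back by at least 0.5 at day 11. AT5G50140 measured 7.24, 6.68 and 7.0 in osmotic roots and 8.77, 8.87 and 9.06 in day 11 roots, against 9.79, 9.71 and 9.64 in mock roots. The day 11 arrays lay between both other groups and overlapped with neither, at differences of -2.74 and -0.81 ± 0.18. AT5G54700 showed no such return, with 5.28, 4.58 and 4.56 in osmotic roots and 4.84, 4.61 and 5.02 in day 11 roots, against 6.18, 6.35 and 6.55 in mock roots. Its differences were -1.55 and -1.54 ± 0.18.

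Proteins that attach ubiquitin made up 2 small families. The 5 U-box proteins had osmotic differences of -1.13 to -0.81 and day 11 differences of -1.47 to -0.70. The 4 ATL-type RING finger proteins had -1.34 to -0.86 and -0.94 to -0.72, and 3 of these genes, AT4G09100, AT4G09110 and AT4G09130, lie next to each other on chromosome 4. AT4G09100 and AT4G09110 left the set without day 11 root replicate 1 or mock root replicate 3. The 3 genes with a heavy-metal-associated domain, which binds metal ions, had -1.03 to -0.73 under stress and -1.06 to -0.77 at day 11. None of the 9 genes in both ubiquitin families or of these 3 moved by 0.5 or more between the osmotic and day 11 roots. The rule requires a day 11 difference of at most -0.7, so members with small osmotic falls could hardly return by that much. Nothing is therefore read from their lack of return. AT1G14260, a RING finger gene outside the ATL type, had a larger osmotic difference of -2.26 and moved back by 1.28.

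Regulators of transcription numbered 7. The basic helix-loop-helix gene AT1G31050 measured 5.34, 4.38 and 5.38 in osmotic roots and 6.21, 6.07 and 6.56 in day 11 roots, against 7.08, 7.48 and 7.38 in mock roots. Its 3 groups were separate, with differences of -2.28 and -1.03 ± 0.21. It was the only one of the 7 to move by 0.5 or more between osmotic and day 11 roots. It also had the largest osmotic fall of the 7, and the rule left smaller falls little room for a return. The MADS box gene AGL79 (AT3G30260) differed by -1.26 and -1.05 ± 0.17, the MYB-like AT3G25790 by -0.98 and -0.78 ± 0.21, and the zinc finger gene TAC1 (AT3G09290), known as an activator of telomerase, by -0.83 at both times (± 0.21). AT3G25790 left the set without day 11 root replicate 2.

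Proteases of the wall and vacuole had 6 members. AT4G10540, a subtilase of the secreted serine protease family, measured 4.49, 5.20 and 4.88 in osmotic roots and 7.18, 7.27 and 8.60 in day 11 roots, against 8.17, 8.0 and 9.01 in mock roots. Its highest day 11 array lay above 2 mock arrays, the differences were -3.53 and -0.71 ± 0.31, and leaving out day 11 replicate 1, day 11 replicate 2 or mock replicate 3 ended its membership. The serine carboxypeptidase-like scpl31 (AT1G11080) differed by -2.47 and -0.96 ± 0.35, and the aspartyl protease AT3G51350 by -1.31 and -0.80 ± 0.19.

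Several of the largest falls belonged to genes to which no role is given here. AT3G55790 measured 7.62, 9.10 and 8.02 in osmotic roots and 6.83, 7.45 and 9.0 in day 11 roots, against 9.80, 9.80 and 10.60 in mock roots. Both groups spread widely yet stayed below mock, at differences of -1.82 and -2.31 ± 0.41. AT1G55790 measured 7.13, 7.32 and 6.82 in osmotic roots and 6.69, 6.60 and 7.46 in day 11 roots, against 8.65, 8.81 and 9.25 in mock roots. Osmotic and day 11 arrays overlapped and stayed clear of mock, at -1.81 and -1.99 ± 0.34. AT5G28610, AT3G01175, AT4G04990, AT2G37780, AT3G26470 and AT2G17710 also belonged to the 16 named genes with the largest lesser fall, with osmotic differences between -2.65 and -1.15 and day 11 differences between -1.59 and -1.13. Among probe sets with no gene in the annotation, 255127_at differed by -4.32 and -2.40 and 248519_at by -3.12 and -2.74.

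Measured from the osmotic to the day 11 roots, 96 members (35.2%) had returned by 0.5 or more, 171 (62.6%) had moved by less than 0.5 and 6 (2.20%) were lower still by 0.5 or more. Those that returned in part had a median osmotic difference of -1.89 and a median day 11 difference of -0.89. The members that held had -1.03 and -0.93, and the 6 that went lower had -0.97 and -1.68. Probe sets that came back to less than 0.7 below mock were left out by the rule. Members with small osmotic falls could therefore not count as returned, and the split follows in part from the choice. The largest returns on the log2 scale among named genes were those of AT5G37450 and AT5G01740, each by 2.87, followed by AT4G10540 by 2.83. The furthest further falls were those of AT4G33710 by -0.80, of AT4G23880 by -0.77 and of AT5G14650 by -0.72. That of AT4G33710 (SE 0.63) rested on osmotic root replicate 2, without which the step was 0.20, and for AT5G14650 the step was -0.32 without the same array and -1.15 without osmotic root replicate 3. Without osmotic root replicate 1 that of AT4G33710 was -1.47. AT4G23880 measured 5.78, 5.65 and 5.53 in osmotic roots and 4.67, 4.68 and 5.31 in day 11 roots, against 6.46, 6.70 and 6.79 in mock roots, so that the day 11 arrays lay below every osmotic array. AT5G01740 left the set without day 11 root replicate 3 or mock root replicate 2.

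Without stress most members were more abundant in roots than in leaves. The median member lay 2.01 higher in mock roots than in mock leaves, with means of 7.37 and 4.93, and 204 members (74.7%) were higher in roots by 1 or more. Over all probe sets the median difference was 0.05 and the share was 14.6%. Among the 1167 probe sets that fell only under stress the median was 1.13 and the share 53.6%, and among the 174 that fell only at day 11 it was 0.82 and 47.1%. The mock root arrays entered the rule, and a fall from near background can be seen only in part, so these shares are descriptions without a test. The lowest member mean in mock roots was 4.15. In mock leaves 111 members (40.7%) lay under the lower quartile of the arrays, against 27.6% of all probe sets.

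**Figure D4:**
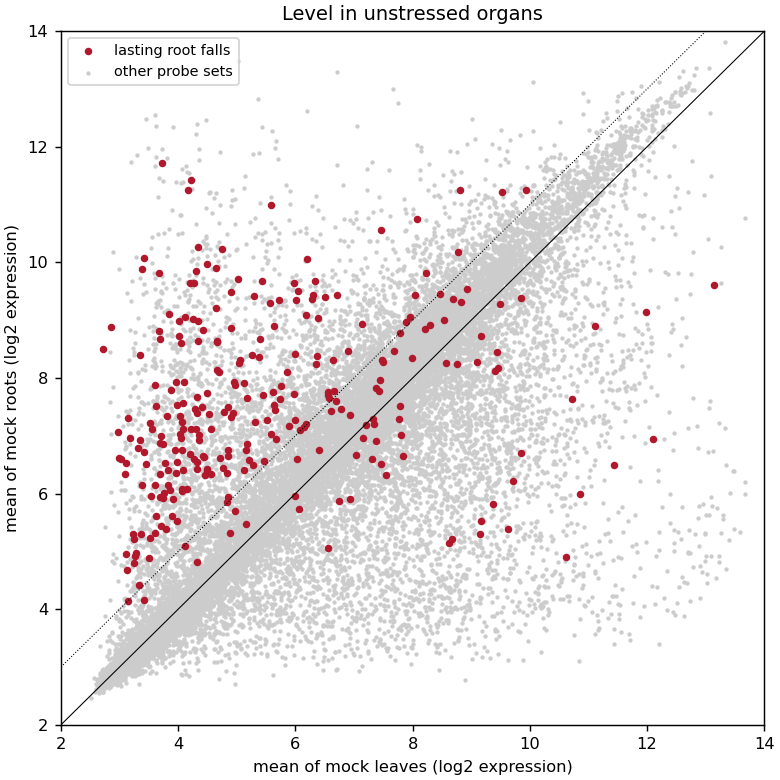
Mean log2 expression in mock roots (y axis) against mock leaves (x axis), with members in red and other probe sets in grey, a solid line of equal level and a dotted line where roots are 1 higher. Of the 273 members 204 lie above the dotted line and 22 lie 1 or more below the solid line.

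At the root end of this range stood AT5G43520, of a cysteine- and histidine-rich zinc-binding family, with 11.63, 11.59 and 11.95 in mock roots and a mean of 3.72 in mock leaves. The germin-like AT3G05950 and the CAP protein AT4G33720 followed, higher in mock roots than in mock leaves by 7.21 and 7.09. These 3 genes were among those with the highest root levels and were named after their values were seen. AT5G43520 left the set without day 11 root replicate 2 or mock root replicate 3. At the other end, 22 members were higher in leaves by 1 or more, among them AT4G16980 at -4.95, the TIR-type gene AT1G63880 at -3.85, the oxygenase AT1G04350 at -3.64 and the subtilase AT5G45650 at -3.55 (mock roots minus mock leaves). AT1G63880 left the set without day 11 root replicate 1 or mock root replicate 3.

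Leaves gave the measure that the rule had not used. Under stress 26 members were lower in osmotic than in mock leaves at an adjusted p below 0.05 (9.52%, against 12% of all probe sets), and 14 were higher (5.13%, against 8.62%), by limma with Benjamini-Hochberg adjustment over 22746 probe sets. The median member differed by -0.02, and the median of all probe sets by -0.00. Of the 111 members under the lower quartile in mock leaves 1 was lower and 1 was higher. The share over all probe sets at that level was not computed, and whether the low leaf level limited the calls was not tested. Among the 74 members above the median in mock leaves, 18 were lower (24.3%) and 7 were higher (9.46%), against 19.9% and 11.6% of all probe sets at that level. Of the 22 members that were higher in leaves than in roots by 1 or more, 8 were lower under stress and 1 was higher. The share among all probe sets with that organ difference was not computed, so nothing is read from these 22. Without osmotic leaf replicate 2 the counts over all members were 17 lower and 8 higher. Without mock leaf replicate 2 there were 7 higher and without mock leaf replicate 3 there were 9.

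**Figure D5:**
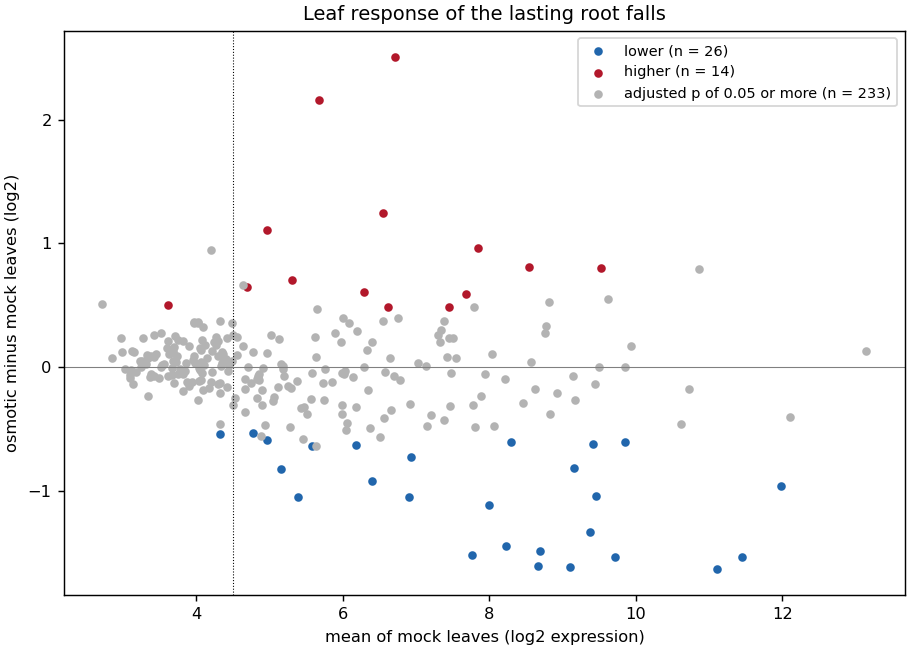
Osmotic minus mock leaves (y axis, log2) against the mean of mock leaves (x axis, log2 expression) for the 273 members, with members lower in blue, higher in red and the others in grey, by limma's adjusted p of 0.05. The dotted line marks the highest lower quartile of the arrays, 4.50, left of which 1 member is lower and 1 is higher.

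The 3 largest leaf falls with a gene name were those of AT1G09750, AT4G16980 and AT5G45650. AT1G09750, an aspartyl protease of the apoplast, measured 9.80, 8.88 and 9.73 in osmotic leaves and 10.97, 11.17 and 11.24 in day 11 leaves, against 10.76, 11.37 and 11.19 in mock leaves. Only the osmotic leaves stood apart, with a fall by 1.64 ± 0.26 against mock (limma adjusted p = 0.00029). In its roots the course was another, with 8.31, 7.54 and 8.31 under stress and 8.61, 7.61 and 7.77 at day 11, against 8.95, 8.88 and 8.86 in mock, and it left the set without osmotic root replicate 2. The arabinogalactan protein AT4G16980 measured 10.05, 9.74 and 9.93 in osmotic leaves and 11.52, 11.37 and 11.41 in day 11 leaves, against 11.39, 11.54 and 11.41 in mock leaves. It fell by 1.54 ± 0.17 (limma adjusted p = 1.1e-05), and the day 11 leaves overlapped with the mock leaves, whereas its day 11 roots differed from mock by -0.93. The subtilase AT5G45650 measured 8.14, 7.80 and 8.17 in osmotic leaves and 9.74, 9.51 and 9.31 in day 11 leaves, against 9.11, 9.63 and 9.37 in mock leaves. Its fall was by 1.34 ± 0.20 (limma adjusted p = 0.00012).

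Calls in osmotic against mock leaves were found in 4 of the 13 families: the proteases, the extensins and arabinogalactan proteins, the ankyrin repeat proteins and the receptor-like kinases. The families are small, and nothing is read from the absence of a call in the others. The 11 genes of the immune receptor group differed between osmotic and mock leaves by -0.41 to 0.40, and the lowest adjusted p in limma's test was 0.15. The 4 CAP genes ran from -0.58 to -0.05 with a lowest adjusted p of 0.096, the 5 oxygenases from -0.27 to 0.36 with 0.39, and the 4 pectin and wall enzymes from -0.38 to 0.11 with 0.50. Many of these genes lay near background in mock leaves, with medians of 4.06 for the immune receptor group and 4.46 for the pectin and wall enzymes. The highest mock leaf means in these 2 groups were 9.14 and 8.83, and whether low levels limited the calls was not tested.

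Smaller leaf falls were called for AT4G31875 and AT1G69160. AT4G31875 measured 4.88, 4.91 and 5.01 in osmotic leaves against 5.62, 5.45 and 5.66 in mock leaves, a fall by 0.64 ± 0.17 (limma adjusted p = 0.010) whose call held under every alternative run. AT1G69160 measured 5.29, 5.18 and 5.97 in osmotic leaves against 6.38, 6.29 and 6.53 in mock leaves, a fall by 0.92 ± 0.25 (limma adjusted p = 0.013). Its adjusted p was 0.054 without mock leaf replicate 3 and 0.076 without osmotic leaf replicate 2. In roots the same 2 genes differed from mock by -0.72 and -1.39 ± 0.17 (AT4G31875) and by -2.44 and -0.87 ± 0.25 (AT1G69160). AT4G31875 left the set without osmotic or mock root replicate 2, and AT1G69160 without day 11 root replicate 1.

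Some members were higher in stressed leaves while lower in stressed roots. AT4G23880 measured 8.84, 8.94 and 8.65 in osmotic leaves and 7.96, 7.60 and 7.98 in day 11 leaves, against 8.20, 7.26 and 8.07 in mock leaves. The osmotic leaves lay above all others, by 0.97 ± 0.21 over mock (limma adjusted p = 0.0034), whereas its osmotic roots differed from mock by -1.0. The ankyrin repeat gene AT1G10340 measured 8.93, 9.53 and 9.60 in osmotic leaves against 9.06, 8.11 and 8.46 in mock leaves, with an overlap of 1 array. It was higher by 0.81 ± 0.21 (limma adjusted p = 0.0086), with an adjusted p of 0.061 without mock leaf replicate 2, the lowest mock array.

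The other named leaf rises were called less firmly. AT1G14260, a RING finger protein, measured 6.86, 6.99 and 6.84 in osmotic leaves against 6.62, 5.78 and 6.47 in mock leaves, a rise of 0.61 ± 0.18 (limma adjusted p = 0.023). Without mock leaf replicate 2 the rise was 0.35 with an adjusted p of 0.14, and omitting osmotic leaf replicate 2 gave 0.084. With the leaf arrays alone its adjusted p was 0.066, and with array weights 0.059. AT4G11300 measured 7.97, 8.38 and 8.48 in osmotic leaves against 7.76, 7.37 and 7.92 in mock leaves, a rise of 0.59 ± 0.18 (limma adjusted p = 0.026). Its adjusted p was 0.14 without mock leaf replicate 2, 0.097 and 0.11 when osmotic leaf replicate 2 or 3 was omitted, 0.070 with the leaf arrays alone and 0.065 with array weights. AT1G01570 measured 5.62, 6.40 and 6.01 in osmotic leaves against 5.14, 5.69 and 5.09 in mock leaves, a rise of 0.70 ± 0.22 (limma adjusted p = 0.029) with 1 overlapping array. Leaving out mock replicate 1 or 3 or osmotic replicate 2 or 3 took its adjusted p to between 0.067 and 0.17. In osmotic roots AT1G14260 differed from mock by -2.26, AT4G11300 by -0.91 and AT1G01570 by -0.72. AT1G01570 left the set without osmotic root replicate 1 or 2 or mock root replicate 1. The largest leaf rises in the set were those of 2 probe sets without a gene, 264729_at by 2.51 (limma adjusted p = 0.00028) and 247668_at by 2.16.

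At day 11 the leaves held few of these differences. In limma's test 2 members were lower than in mock leaves (0.733%, against 0.369% of all probe sets) and 0 were higher (against 0.721%), with 26 lower and 14 higher at an unadjusted p below 0.05 (9.52% and 5.13%, against 7.54% and 7.05% of all probe sets). The 2 were probe sets without a gene, 263569_at at -0.72 ± 0.14 and 252917_at at -0.66 ± 0.13, and both were also lower in osmotic leaves, by -0.83 and -1.12. The count was 0 without mock leaf replicate 1 or 3, 1 without day 11 leaf replicate 3, 4 without day 11 leaf replicate 1 and 6 without mock leaf replicate 2. The median member stood at -0.01 from mock in day 11 leaves, as against -0.93 in day 11 roots, a difference between organs that carries no test because the rule chose the root value.

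Day 11 leaves were also compared with osmotic leaves. Here 12 members were lower (4.40%, against 7.96% of all probe sets) and 18 were higher (6.59%, against 9.13%). Without day 11 leaf replicate 3 there were 10 higher. The higher ones included AT1G09750 at 1.65 ± 0.26, AT4G16980 at 1.52 ± 0.17 and AT5G45650 at 1.49 ± 0.20 (limma adjusted p at most 0.00029), and this comparison shares the osmotic leaf arrays with the one against mock. AT2G17710 measured 8.67, 8.18 and 8.63 in day 11 leaves against 7.47, 7.72 and 7.59 in osmotic leaves, a rise of 0.90 ± 0.20 (limma adjusted p = 0.0041). AT4G31875 measured 5.18, 5.25 and 5.94 in day 11 leaves against 4.88, 4.91 and 5.01 in osmotic leaves, higher by 0.52 ± 0.17 (limma adjusted p = 0.039). The adjusted p for AT4G31875 was 0.057 to 0.10 without any 1 of the osmotic leaf arrays, and without day 11 leaf replicate 3 its difference was 0.28 with an adjusted p of 0.23. It was 0.052 with centred arrays and 0.11 with the leaf arrays alone.

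Of named genes, 4 were lower in day 11 than in osmotic leaves, 3 of them genes that had been higher in osmotic than in mock leaves. AT4G23880 fell by 0.96 ± 0.21 (limma adjusted p = 0.0044), AT1G14260 by 0.88 ± 0.18 (limma adjusted p = 0.0024) and AT4G11300 by 0.62 ± 0.18 (limma adjusted p = 0.024). AT2G45670, which encodes an acyltransferase of phospholipid remodelling, measured 6.63, 6.48 and 7.08 in day 11 leaves against 7.57, 7.39 and 7.32 in osmotic leaves. It fell by 0.70 ± 0.18 (limma adjusted p = 0.013), with an adjusted p of 0.068 without day 11 leaf replicate 2 and 0.061 with the leaf arrays alone, and in roots it left the set without day 11 replicate 2. That of AT4G11300 was 0.12 without day 11 leaf replicate 1, and 0.089 or 0.094 when osmotic leaf replicate 2 or 3 was omitted, 0.071 with the leaf arrays alone and 0.058 with array weights.

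Probe sets that fell in roots under stress alone gave a point of comparison in leaves. Of these 1167 probe sets, 266 were lower in osmotic leaves (22.8%) and 35 were higher (3.00%). Of the 174 that fell at day 11 alone, 9 were lower (5.17%) and 33 higher (19.0%). The members stood at 26 (9.52%) and 14 (5.13%) of 273, and all probe sets at 12% and 8.62%. More of the members lay near background in mock leaves (40.7%, against 22.4% of the probe sets lower under stress alone), and the difference between the sets was not tested.

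Lists drawn up by words in gene names and synonyms found few members, because the gene table supplies names for a small part of the array. Of 19 lists with 192 gene entries, 17 lists with 155 entries held no member. Wall loosening and xyloglucan, a list of 30 expansins, xyloglucan enzymes and related genes, held EXPB2 alone. Of its 29 other genes, 7 were lower and 4 higher in osmotic roots by limma's test (13.7% and 10.6% of all probe sets). In day 11 roots 0 were lower, also at an unadjusted p below 0.05, and 3 were higher (4.01% and 3.65% of all probe sets). In osmotic leaves 7 of the 30 were lower and 2 were higher (12% and 8.62% of all probe sets). The defence-related list of 7 genes held PR-1-LIKE alone, and of its 6 other genes 0 were lower in osmotic or day 11 roots, also at an unadjusted p below 0.05. Among the 6, limma called 0 higher in osmotic roots (10.6% of all probe sets), with 1 at an unadjusted p below 0.05. In day 11 roots it called 1 higher (3.65% of all probe sets). Members, chosen for their root falls, were taken out of these root counts but not of the shares of all probe sets. The counts of lower genes are thereby reduced in advance, and nothing is read from them.

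Few markers of other cells could be matched to a probe set by the annotation. Of 41 markers 7 were matched and none of these was a member: the root hair expansins EXPA7 and EXPA18 (2 of 8 listed), the mitotic kinases AUR1 and AUR2 (2 of 7) and the leaf genes RCA, PSAE-1 and PRK (3 of 7). None of the 9 endodermis, 6 xylem and 4 phloem markers was matched. EXPA7 averaged 9.90 in osmotic roots, 9.40 in day 11 roots and 9.68 in mock roots, with differences of 0.22 and -0.28 ± 0.17, and EXPA18 differed by -0.28 and -0.10 ± 0.19. AUR1 differed by -0.45 and 0.16 ± 0.17 and AUR2 by -0.27 and 0.03 ± 0.17. Of the leaf genes, all of them low in roots, RCA differed by -1.03 and -0.20 ± 0.18, PSAE-1 by 1.04 and 0.26 ± 0.25 and PRK by -0.30 and -0.25 ± 0.16. The part of cell composition in the root falls was not tested beyond these values.

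Some members lay close to each other in the genome. In the order of 13286 measured genes of the RefSeq table (assembly TAIR10.1), 32 of the 146 member genes (21.9%) had another member within 3 steps, in 19 pairs, a count given without a test. Of the 613 genes that fell in roots under stress alone, 28.5% were in a pair. Those genes were 4.61% of the measured genes and the members 1.10%, so the shares in pairs are not directly comparable. Member pairs of 1 family included the oxygenases AT1G52790, AT1G52800 and AT1G52820, the RING finger genes around AT4G09100, and the CAP genes AT2G19970 with PR-1-LIKE and AT4G33710 with AT4G33720. Whether related neighbours were read by the same probes was not tested, and probe sets marked by the manufacturer as matching several transcripts made up 1.47% of the members and 4.66% of all. Members lay on all 5 nuclear chromosomes, at 0.94% to 1.32% of the measured genes of each.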

How the data were processed

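Total RNA of 18 samples was hybridised to Affymetrix ATH1 arrays, per the labels' protocols. The authors deposited 1 table of log2 expression values with 22810 probe sets (log base judged from their highest value, 13.9). The summary method and normalisation behind it are not given in the sources used here. Values were used as deposited, without floor or filter, after 64 control probe sets were left out, and 0 sample columns were unused. The platform annotation paired 13513 of the 22746 probe sets with 1 gene, 503 with several and 8730 with none, and 13436 were found in the RefSeq table. The RefSeq table (assembly TAIR10.1) gave the gene order and chromosomes, and no coordinates are given. Sequences of the members were not analysed here.

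The members and the lists were chosen with earlier results of these data known. Group means were taken over 3 arrays. A linear model of the 18 arrays held 1 mean a group and was run in limma 3.58.1 (lmFit, then eBayes with trend; R 4.3.3), p-values were adjusted by Benjamini-Hochberg over 22746 probe sets, and an adjusted p below 0.05 was called. SEs come from that fit. The number of arrays limits the precision. The fit was tested on simulated data. Replicate numbers were the labels' own, and the main fit did not use them to pair the samples. Tables were handled with Python 3.11.15, pandas 2.3.3 and numpy 2.4.6, and figures with matplotlib 3.10.9. Among members with 1 gene, named genes were the 16 with the largest lesser fall and a mock root mean above 6.61, the median of all values; up to 4 of each list; up to 5 in each leaf comparison and direction; and the 3 with the largest rise and the 3 with the largest further fall after stress. The 3 probe sets on either side of the threshold were added. Other genes, and the protein families, were picked after their values were seen. Alternatives were other thresholds, group medians, centred or quantile-normalised arrays, the leaf arrays alone, no trend, array weights, dim probe sets left out, the replicate number as a block and each array left out.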

Additional observations from a re-analysis of the deposited data

Results flagged for a closer look

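Among the 14 members called higher in osmotic than in mock leaves by limma's adjusted p (5.13%, against 8.62% of all probe sets), 12 had arrays apart in both organs. Every osmotic leaf array lay above every mock leaf array and every osmotic root array below every mock root array. The root part follows from the rule, since it held for 269 of the 273 members (23.4% of all probe sets). The share of all probe sets with both traits was not computed, so nothing is read from the count. Of the 5 named genes called higher, 3 were among the 12. AT4G23880 differed by 0.97 in leaves and by -1.0 in roots, AT1G14260, a RING finger gene, by 0.61 in leaves and by -2.26 in roots, and AT4G11300 by 0.59 in leaves and by -0.91 in roots (osmotic minus mock, log2). The other 9 were probe sets with no gene in the annotation. Their leaf differences were 2.51 for 264729_at, 2.16 for 247668_at, 1.25 for 265418_at, 1.11 for 251766_at, 0.80 for 254723_at, 0.64 for 252596_at, 0.50 for 259557_at, 0.48 for 264405_at and 0.48 for 253172_at. In roots these 9 differed by -1.84 to -0.75. The difference between the organs was not tested, since the rule chose the root values.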

How the results depend on the processing

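The size of the set depended on the threshold: 642 probe sets had both falls at 0.5 or more and 80 at 1 or more. Centred arrays gave 234, quantile normalisation 272 and group medians 283, and leaving out 1 root array gave 259 to 326. In leaves, the count lower under stress ran from 17 to 28 and the count higher from 7 to 14 when 1 leaf array was left out. Lower at day 11 than in mock leaves were 2 members, with 0 to 6 when 1 array was left out, 0 with the leaf arrays alone and 17 with array weights. Higher there were 0 in the fit over all arrays and whichever array was left out, 1 with the leaf arrays alone and 5 with array weights. Lower at day 11 than in osmotic leaves were 8 to 17 with 1 array left out and 7 with the leaf arrays alone, and higher were 10 to 19 and 9. The median leaf differences of the members ran from -0.04 to 0.01 (osmotic against mock), from -0.03 to 0.02 (day 11 against mock) and from 0.01 to 0.05 (day 11 against osmotic) with 1 array left out. After centring the medians against mock were 0.0449 and 0.0326. The cause of these shifts was not tested.

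The replicate numbers shared by the groups gave deviations from group means that correlated at -0.29 to 0.35 for same-numbered samples. Differently numbered samples were not compared, so these values cannot settle whether the numbers pair the samples. With the replicate block, 26 members were lower and 15 higher in osmotic than in mock leaves, 6 lower and 0 higher in day 11 than in mock leaves, and 12 lower and 19 higher in day 11 than in osmotic leaves. Of 247 alternative values for 19 leaf results of named genes, 218 kept direction and call, 29 kept the direction without passing the threshold and 0 turned round; 11 of the 19 passed under all alternatives. Signal near background may limit leaf comparisons for the 111 members under the lower quartile in mock leaves, which was not tested. The root step of AT4G33710 from osmotic to day 11 was -0.80, ran from -1.47 to 0.20 with 1 array of either group left out (chosen after the data were seen) and turned without osmotic root replicate 2. It was the only one of 6 named steps to turn when 1 array of either group was left out.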
